A study of Mus musculus with 12 samples.

Results

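RNA-seq of Rd76-9 tumors was used to compare 3 tumors from mice treated with vincristine (VCR) alone (m4, m5 and m6) with 3 tumors from vehicle-treated mice (m1, m2 and m3). These 6 of the 12 tumors in the series were chosen by their titles, and no tumor of either group was left out. Rd76-9 is a mouse embryonal rhabdomyosarcoma (RMS) line that arose after methylcholanthrene, and it was injected under the skin of the flank of wild-type (WT) C57/Bl6J mice aged 8 to 12 weeks. VCR was given intraperitoneally at 0.25 mg/kg once a week, and vehicle mice received saline and empty nanoparticles. One label of the vehicle tumors also names RCM1 nanoparticles, and whether the VCR mice received empty nanoparticles is not given in the sources used here. Tumors were frozen whole at day 16, so each value is a sum over tumor cells, host cells and any tissue dissected with them. In such bulk samples, fewer cells of a type and less RNA per cell cannot be told apart. Each tumor came from 1 line, and the labels do not say whether the mice shared a cage, litter or sequencing run.

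Vincristine binds β-tubulin and blocks the assembly of microtubules, so that dividing cells fail to build a mitotic spindle and are held in mitosis. The drug is a mainstay of treatment of RMS, a tumor of cells that carry part of the skeletal muscle program. In cells held in mitosis, the spindle checkpoint keeps the anaphase-promoting complex inactive, and cells that leave mitosis without dividing can arrest or die through p53 and the BCL2 family. Free tubulin also feeds back on its own mRNAs, which are degraded when unpolymerized tubulin accumulates. Microtubule drugs act on endothelial cells as well, since these depend on microtubules for their shape and migration.

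The deposited estimated counts came to between 29342195 and 31615720 reads in the 6 tumors. Genes were compared by edgeR's quasi-likelihood F test on counts summed per gene, in one fit of all 12 tumors, and a gene was taken as changed at a Benjamini-Hochberg adjusted p under 0.1. Fold changes are VCR over vehicle on the log2 scale, and levels are CPM, the count scaled to a common library size with TMM factors. Of 17606 genes tested, 977 changed (5.55%), with 493 higher (2.8%) and 484 lower (2.75%) after VCR. A set of 52 of the higher genes belongs to a list of 202 genes of the mature muscle fibre, of which 188 were tested. Outside that list 441 genes rose and 484 fell. The groups did not overlap for 438 of the genes that rose and 471 of those that fell, against 24.4% of all tested genes. Picking genes by the test favors such groups, so this adds no support to the calls. Most changes were small, since 534 of these 925 genes moved by less than 0.5 on the log2 scale. A log2 change of at least 1 was seen for 103 genes that rose and 64 that fell.

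The calls lie close to the threshold. The smallest adjusted p was 0.0486, shared by 9 genes, and the median over the changed genes was 0.0851. Leaving out vehicle tumor m2, VCR tumor m4 or VCR tumor m5 left 0 genes past the threshold by edgeR, with 3078, 2762 and 2126 genes at an unadjusted p under 0.05, against 3893 genes (22.1%) with every tumor kept. Without m6 the number rose to 2019, and without m11, a tumor of the combination that only enters the estimate of the spread, it was 1. All 977 genes kept their direction when each of the 6 tumors was left out in turn. This was largely set by the choice of genes, since nearly all of those outside the muscle list had groups that did not overlap. DESeq2 with all 12 tumors called 2216 of 15436 genes (14.4%), 914 of them among the 977.

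**Figure D1:**
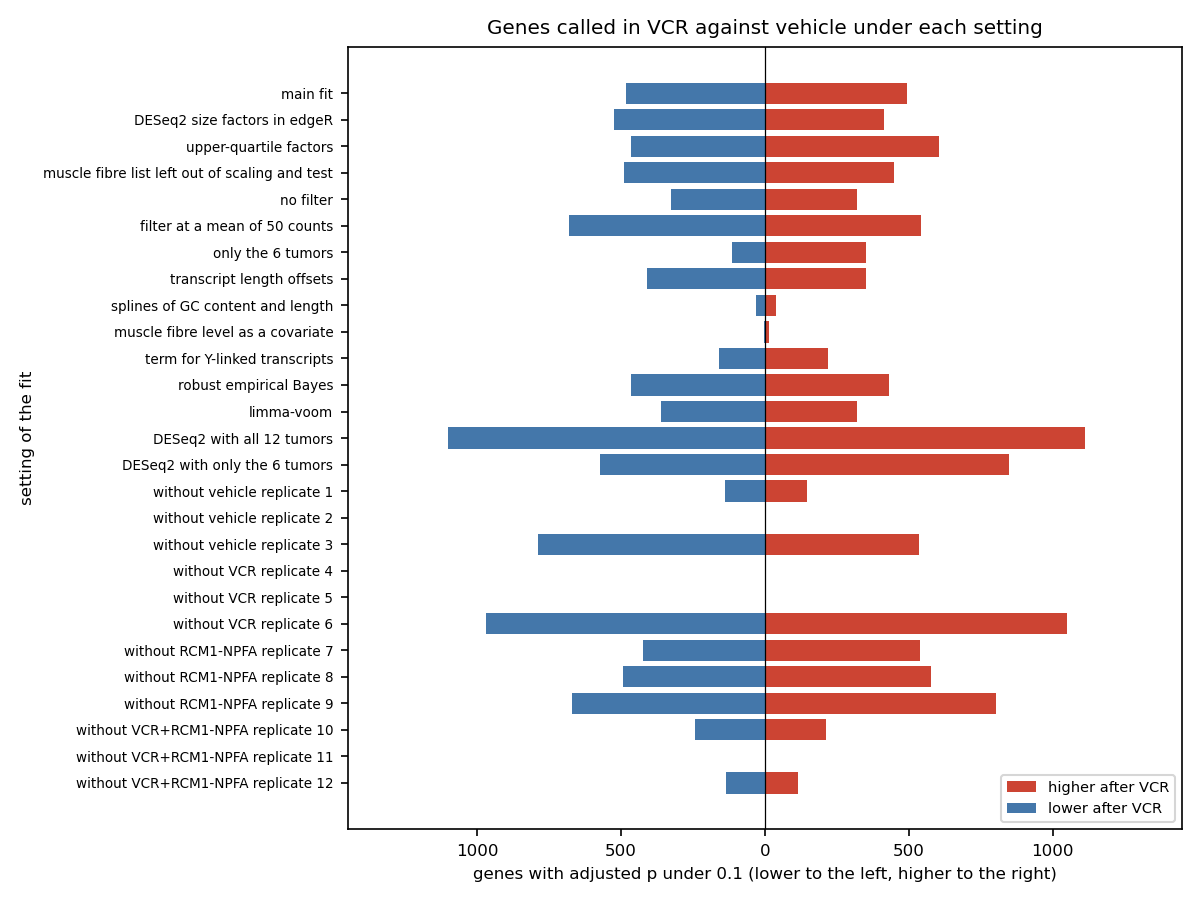
Number of genes with an adjusted p under 0.1 (horizontal axis, higher after VCR to the right in red, lower to the left in blue) for each setting of the fit (vertical axis). The main fit gave 493 and 484 genes, while leaving out m2, m4 or m5 gave 0.

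The level of muscle fibre genes differed between the groups, and whether it came from adjoining muscle or from the tumor cells was not tested. The muscle fibre list summed to 6248, 6445 and 6973 CPM in the vehicle tumors and to 13727, 29172 and 10007 CPM in m4, m5 and m6. Most of its marker genes were near 0 in m2 and m3, though *Tnnt3* among them had 6.38 and 9.17 CPM there. *Ckm*, muscle creatine kinase, had 0.0336 and 0.101 CPM in m2 and m3, while m1 had 11.5 CPM. After VCR *Ckm* stood at 439, 1404 and 167 CPM, with every VCR tumor above every vehicle tumor. Its adjusted p by edgeR was 0.12 in the fit of all 12 tumors, whose spread takes in the other treatment groups. With only the 6 tumors it was 0.0697, and 126 of the 188 tested fibre genes passed, against 52 in the main fit. Other marker lists differed between single tumors without following the groups. The red cell list summed to 242, 318 and 19.8 CPM in vehicle and to 423, 28.7 and 17.6 CPM in VCR tumors, and the adipocyte list to 210.2, 303 and 104 CPM and then to 260.3, 403 and 168 CPM. The B cell gene *Ms4a1* had 111 counts in m4 and at most 8 in any other of the 6 tumors. The hosts differed in sex too. Y-linked transcripts summed to 16.2, 21.6 and 21.5 CPM in m3, m4 and m6 and to at most 1.3 CPM in m1, m2 and m5. With a term for tumors that carry these transcripts, 376 genes (2.14%) passed the threshold.

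The label of the tumors as RMS was checked on the myogenic factors. *Myf5*, a factor of the early muscle lineage, was at 52.6 to 69.8 CPM in all 6 tumors. *Pax7*, which marks muscle stem cells, and *Fgfr4*, often high in RMS, were near 0, at most 0.19 and 0.507 CPM. *Myod1*, the factor that commits cells to muscle, had 1 count in m1 and 0 in m2 and m3, and 2.38, 2.38 and 1.2 CPM after VCR. *Myog*, which drives myoblasts to differentiate, had 3 counts over the 3 vehicle tumors and 2.16, 1.65 and 1.43 CPM after VCR. Both rose (edgeR adjusted p = 0.082 and 0.0694), but neither passed with the muscle covariate (adjusted p = 0.193 and 0.182). That covariate is the log2 of the summed muscle fibre list in each tumor. It was higher in every VCR tumor than in every vehicle tumor, so it takes up part of the group difference. Here and below, a gene that did not pass with it is not shown to follow muscle. They were the 2 calls among 18 myogenic regulators tested, of which 8 were above 0 and 10 below, with a median of -0.045. From the summed counts the ratio was 183 for *Myod1* (95% exact interval 32.4 to 7260) and 53.7 for *Myog* (18 to 263), and these intervals cover counting error only. The ratio of m5 to m6 was 1.98 for *Myod1* and 1.15 for *Myog*, against 8.41 for *Ckm*. Satellite cells and fibres of adjoining muscle can also carry both mRNAs, and their part in these values was not tested.

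Besides *Fhl1*, a LIM-domain gene of the muscle list, 8 genes passed an adjusted p of 0.05. *Egfr*, the epidermal growth factor receptor (chr11:16752203-16913907 of GRCm38), was at 91.8, 101 and 105 CPM in the vehicle tumors and at 63.1, 58 and 71.3 CPM after VCR. The highest VCR tumor thus lay well below the lowest vehicle tumor, and the log2 fold change was -0.63 (SE 0.08, adjusted p = 0.0486). *Setd5*, a chromatin regulator of the SET family (chr6:113077262-113153432), fell from 171 ± 8.88 to 119 ± 9.34 CPM (SD, n = 3). *Rreb1*, a zinc-finger factor that responds to RAS signaling (chr13:37778382-37952005), fell from 73.5 ± 4.38 to 53.7 ± 0.205 CPM. *Plac9a*, a small secreted protein gene (chr14:25888403-25902893), rose from 3.18, 2.85 and 3.39 CPM to 6.66, 11.1 and 8.18 CPM, a log2 fold change of 1.46 (SE 0.20). These 4 genes were the ones of the 977 that also passed the threshold under each of the 14 alternatives that kept every tumor, including a covariate for the muscle list and splines for GC content and length. The others at this level were *Kdm3a*, *Prune2* and 2610005L07Rik, which fell, and *Mgat3*, a glycosyltransferase of N-glycans, which rose from 15.4 ± 1.09 to 24.6 ± 1.16 CPM.

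Genes of the drug's own target changed by small amounts. Of 16 tubulin genes tested, 3 rose and 0 fell (2.8% and 2.75% of all tested genes did). The groups were apart in the higher direction for 8 (13.5% of all tested genes were). By an unadjusted p under 0.05 from edgeR 8 were higher, where 22.1% of all tested genes passed in either direction. The list median was 0.23 on the log2 scale against 0.00 over all genes tested. *Tubb6*, a β-tubulin of many tissues, was at 199.8, 214 and 207 CPM in vehicle tumors and at 249, 284 and 246 CPM after VCR (log2 fold change 0.33, SE 0.08, adjusted p = 0.0762). *Tubb4b* and *Tuba1c* rose by a similar amount, with log2 fold changes of 0.43 and 0.35. *Tuba1b* was at 1391, 1529 and 1509 CPM in vehicle tumors and at 1778, 1809 and 1636 CPM after VCR. Its groups were apart, as were those of *Tuba1a*, but neither passed (edgeR adjusted p = 0.213 and 0.345). *Tubb5*, an abundant β-tubulin, was at 1660 ± 161 CPM in vehicle and 1776 ± 29.9 CPM in VCR tumors (adjusted p = 0.623). *Tubb3*, a neuronal isotype linked to resistance against microtubule drugs, was at 11, 8.53 and 11.2 CPM and then at 15.2, 12.1 and 15.3 CPM, groups that did not overlap but did not pass the test (adjusted p = 0.213). *Tubb2b*, at 80.7, 62.3 and 123 CPM in vehicle tumors, was at 80.4, 73.2 and 80.1 CPM after VCR, inside the vehicle range. Among 42 microtubule-associated genes, 1 rose and 1 fell (2.8% and 2.75% of all tested genes did). These were *Tbcb*, a chaperone that folds α-tubulin (56.6 ± 1.58 to 76.9 ± 6.15 CPM), and *Numa1*, which gathers microtubules at spindle poles (226 ± 21.4 to 183 ± 11.4 CPM). The tubulin mRNAs are short, with a median length of 1782 bases, and the list median was 0.07 once GC content and length were modeled.

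Mitotic genes rose in 5 of 59 members and fell in 0, against 2.8% and 2.75% of all tested genes. *Plk1*, a kinase that drives entry into mitosis, was at 103, 112 and 103 CPM in vehicle tumors and at 125, 150.4 and 135 CPM after VCR, so that the groups were apart (log2 fold change 0.36, SE 0.08, adjusted p = 0.0713). *Aurka*, the spindle pole kinase, showed the largest rise of the 5, at 47.7, 50.1 and 42.9 CPM and then at 57.8, 73.2 and 63.3 CPM (0.47, SE 0.10). *Cenpa*, the centromeric histone, *Cdc20*, the target of the spindle checkpoint, and *Spc24*, a kinetochore subunit, rose by 0.35, 0.29 and 0.29. The list as a whole was near 0, with a median of 0.06 that lay between 0.00 and 0.15 when each tumor was left out. With the splines 0 of the 59 passed, while the median was 0.115 and 55 were above 0, against 35 without them. Its median over single tumors was 0.155 in vehicle tumor m2, above the 0.029, 0.112 and 0.098 of the VCR tumors. *Foxm1*, the transcription factor of the late cell cycle, was at 139, 168 and 143 CPM in vehicle tumors and at 167, 172 and 168 CPM in VCR tumors, and the groups overlapped (adjusted p = 0.304). *Mki67*, a marker of cycling cells, was at 519 ± 92.3 and 455 ± 37.9 CPM (adjusted p = 0.453). Of 52 genes of DNA replication, 46 had a fold change above 0, and 37 with the splines, against 50.3% of all tested genes in the main fit. The list median was 0.10. Its median over single tumors was 0.179 in vehicle tumor m2, above the 0.123, 0.102 and 0.082 of the VCR tumors. Of the 52, 1 rose (2.8% of all tested genes did). This was *Ccne1*, the cyclin of entry into S phase, with 27.7 ± 4.47 and 40.3 ± 2.31 CPM.

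The p53 and BCL2 lists held few changes. Of 37 p53 target genes 3 rose and 0 fell, and of 21 BCL2 family genes 2 rose and 0 fell. Among all tested genes 2.8% rose and 2.75% fell. *Bax*, a pro-apoptotic effector on both lists, was at 69.8, 69 and 68.2 CPM in vehicle tumors and at 80.6, 94 and 77.3 CPM after VCR (0.28, SE 0.07, adjusted p = 0.0861), but its log2 fold change was -0.03 once GC content and length were modeled. *Bok*, a related effector, rose from 34.7 ± 3.68 to 48.5 ± 8.5 CPM, and the p53 targets *Phlda3* and *Gtse1* rose by 0.54 and 0.33. *Cdkn1a*, the cell cycle inhibitor that is a main p53 target, ran from 26 to 54.8 CPM in vehicle tumors and from 41.4 to 47.7 CPM in VCR tumors, inside the vehicle range (adjusted p = 0.785). Of 10 drug efflux genes 0 changed by edgeR, and 2 had an unadjusted p under 0.05 (22.1% of all tested genes did). DESeq2 with all 12 tumors called 2 of them lower, and 14.4% of all genes it tested in either direction. *Abcb1a* and *Abcb1b* encode the mouse P-glycoproteins that pump out vincristine, and they were at 2.73 ± 0.87 and 52.5 ± 7.57 CPM in vehicle and at 3.21 ± 0.807 and 42.0 ± 4.56 CPM in VCR tumors.

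**Figure D2:**
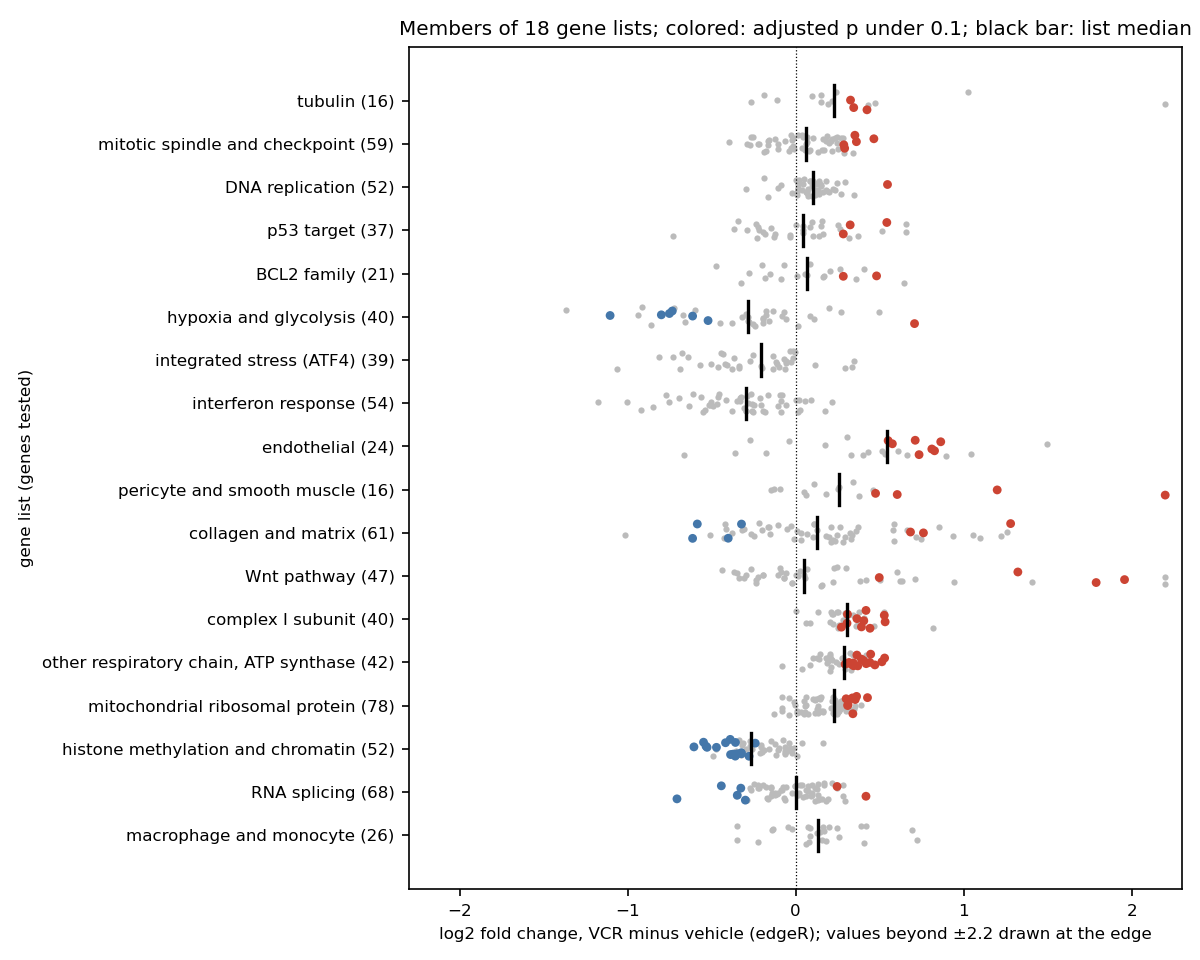
Log2 fold change of VCR over vehicle (horizontal axis) of each tested member of 18 gene lists (vertical axis, number tested in brackets), with genes past an adjusted p of 0.1 in red (higher) or blue (lower) and the list median as a black bar. Calls fall on the lower side in the chromatin list and, apart from *Epas1*, in the hypoxia list, and on the higher side in the endothelial and respiratory chain lists.

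Genes induced by low oxygen were lower after VCR. Of 40 genes of hypoxia and glycolysis, 6 fell and 1 rose (2.75% and 2.8% of all tested genes did). The groups were apart in the lower direction for 12 (10.9% of all tested genes were), and the list median was -0.28. *Kdm3a*, a histone demethylase induced by hypoxia, was at 114, 115 and 127 CPM in vehicle tumors and at 64.2, 64.3 and 82.8 CPM after VCR (log2 fold change -0.75, SE 0.11, adjusted p = 0.0486). *Ak4*, a mitochondrial adenylate kinase, showed the largest fall of the 6, from 35.2, 57.7 and 56.6 CPM to 21.4, 21.3 and 26.9 CPM (-1.10, SE 0.24). *Vegfa*, the growth factor that draws blood vessels to tissue short of oxygen, was at 273, 339 and 359 CPM and then at 247, 210.3 and 219 CPM (-0.52, SE 0.13, adjusted p = 0.0801). The VCR tumor with the most *Vegfa* stood below the vehicle tumor with the least. *Pdk1*, which turns pyruvate away from mitochondria, *Pfkl*, a phosphofructokinase of glycolysis, and *P4ha1*, a prolyl hydroxylase of collagen, fell by 0.80, 0.73 and 0.61. *Epas1*, which encodes the hypoxia-inducible factor HIF-2α found in endothelial cells, was the gene that rose, from 17, 16.3 and 14.3 CPM to 25.6, 30.9 and 21.3 CPM (0.71, SE 0.14, adjusted p = 0.0676).

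The vehicle tumors were not alike in these genes. The list median relative to the vehicle mean was -0.247 in m1, -0.119 in m2 and 0.312 in m3, against -0.354, -0.274 and -0.287 in the VCR tumors, so that m1 lay close to them. Without m3 the list median was -0.15, and without m1 it was -0.37. The median was -0.32 with the splines for GC content and length and -0.35 with the muscle covariate, and *Kdm3a*, *Vegfa* and *Epas1* kept an adjusted p under 0.1 with the splines. With the muscle covariate 0 of the 40 passed, against 0.102% of all genes, with *Kdm3a* at an adjusted p of 0.101. Summed over the list, where abundant glycolytic genes weigh most, the vehicle tumors had 13317, 14845 and 19956 CPM and the VCR tumors 13778, 14848 and 13855 CPM, which overlap.

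ACGTG is a core that the hypoxia-inducible factors bind, and it was the only form searched. A window without it is therefore not shown to lack a site. Windows from 250 bases before to 50 bases after each RefSeq transcript start of GRCm38.p6 were searched for ACGTG or its reverse complement CACGT, and 19.6% of 32851 windows held either. Of 53 windows of the tested hypoxia and glycolysis genes, 50.9% did. The 6 genes that fell had 13 windows, of which 3 held a match (23.1%, near the share of all windows), 1 each for 3 genes. These 3 are shown so that the letters found can be read in place. They are given on the strand of the gene, 5′ to 3′, with the match in capitals.
Ak4, chr4:101419479-101419504, + strand: ccactctgccCACGTGcggggaccgg
P4ha1, chr10:59323270-59323294, + strand: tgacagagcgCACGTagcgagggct
Vegfa, chr17:46025360-46025384, - strand: agtgcgtgccCACGTcagagagcaa
The *Ak4* match reads the same on both strands. The *Ak4*, *P4ha1* and *Vegfa* matches begin 214, 16 and 211 bases before a transcript start, in each case a start that lies downstream of the gene's first. A match is a description of the window, and binding was not measured here.

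**Figure D3:**
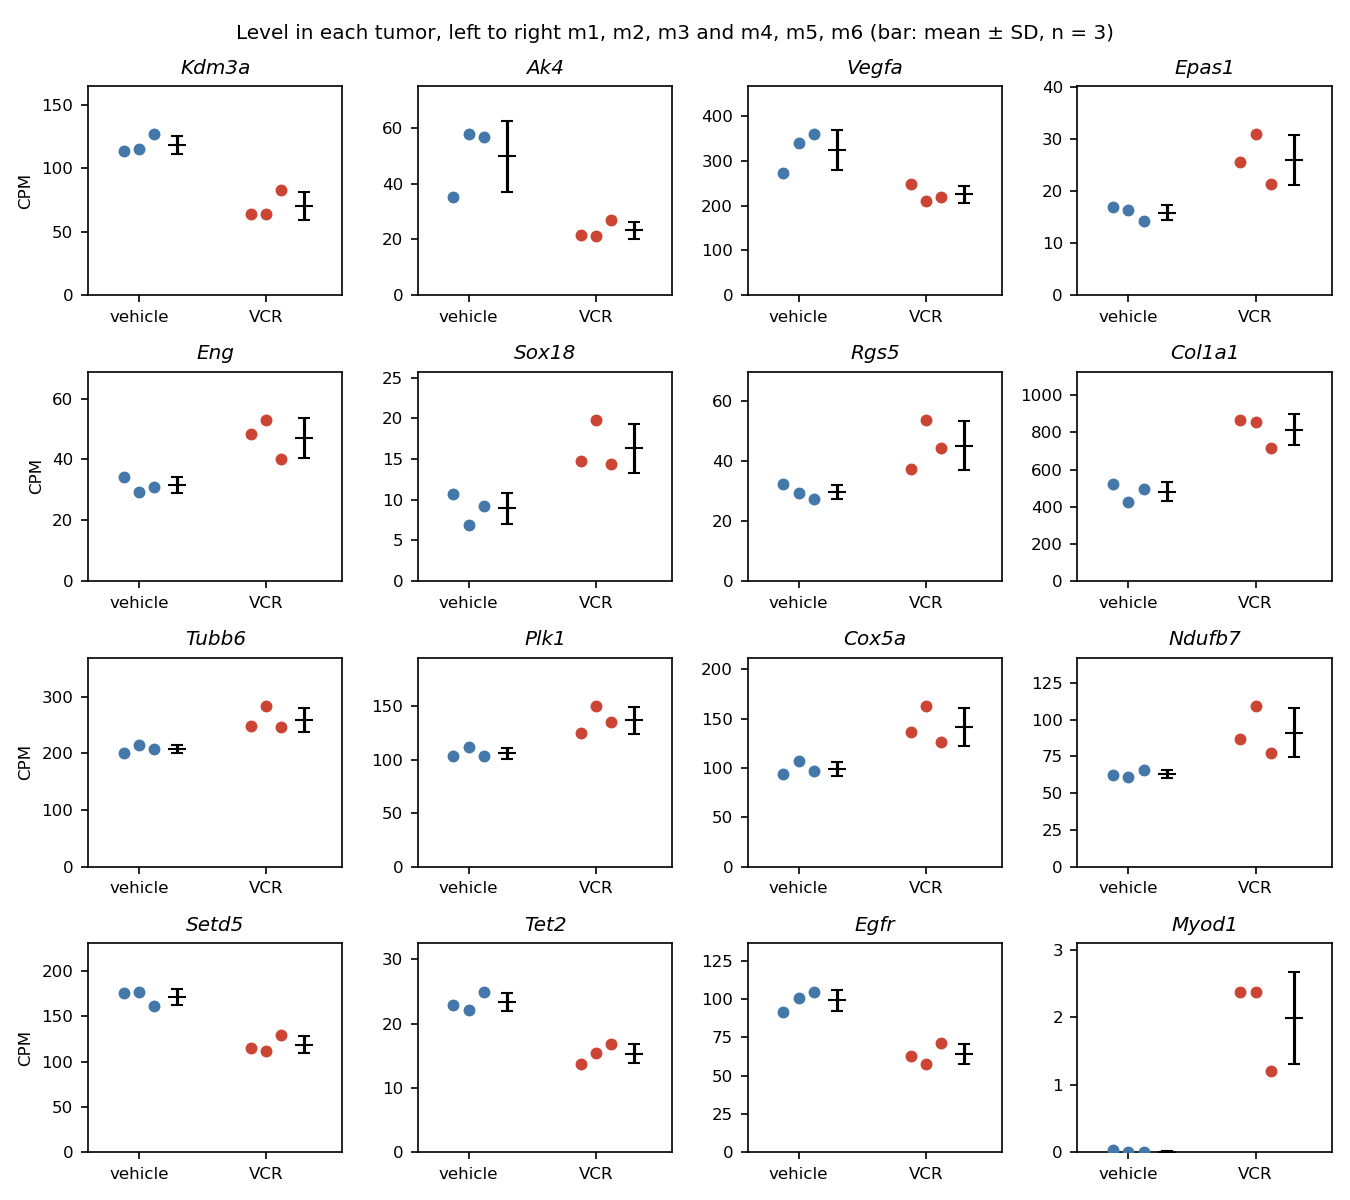
Level in CPM (vertical axis, from 0) of 16 genes in each vehicle tumor (blue, m1, m2 and m3 from left to right) and each VCR tumor (red, m4, m5 and m6), with the mean ± SD (n = 3) as a black bar beside each group. In each panel the groups do not overlap, with *Kdm3a*, *Ak4*, *Vegfa*, *Setd5*, *Tet2* and *Egfr* lower and the other genes higher after VCR.

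Endothelial genes were higher after VCR. Of 24 tested 7 rose and 0 fell (2.8% and 2.75% of all tested genes did). The groups were apart in the higher direction for 11 (13.5% of all tested genes were), and the list median was 0.54. *Eng*, the coreceptor endoglin, was at 34.3, 29.4 and 31.1 CPM in vehicle tumors and at 48.3, 53 and 40 CPM after VCR (log2 fold change 0.58, SE 0.11, adjusted p = 0.0688). *Sox18*, a transcription factor of vessel formation, rose from 10.7, 6.92 and 9.27 CPM to 14.8, 19.8 and 14.4 CPM (0.86, SE 0.18). *Esam*, *Robo4*, *Egfl7*, *Tie1* and *Sox17*, an adhesion molecule, a guidance receptor, a secreted vessel protein, a receptor kinase and a further SOX factor, rose by 0.74, 0.55, 0.83, 0.81 and 0.71. The markers most used to count vessels moved less. *Pecam1* (CD31) was at 47.7, 35.4 and 40.8 CPM and then at 50.9, 66 and 47.2 CPM, so that m6 lay below m1 (adjusted p = 0.114). *Cdh5* (VE-cadherin) was at 65.2, 48.7 and 63.8 CPM and then at 70.8, 87.6 and 64.9 CPM, with m6 below m1. The list median stayed at 0.51 with the splines and at 0.38 with the muscle covariate, and 0 of the 24 passed the threshold in either fit, against 0.445% and 0.102% of all genes. By an unadjusted p under 0.05 in the main fit, 14 were higher and 1 lower, where 22.1% of all tested genes passed in either direction. DESeq2 with all 12 tumors called 12 higher and 1 lower, and 14.4% of all genes it tested. The endothelial list was highest in m5 of the 6 tumors, as the muscle list was, and the part of vessels of adjoining muscle in this result was not tested. Single genes outside the list that were chosen because they rose, and so add nothing to its count, include *Thbd* (thrombomodulin, 4.58 ± 1.71 to 12.1 ± 3.39 CPM), *Ace* (4.17 ± 2.26 to 12.7 ± 5.95 CPM), *Tmem204* (3.42 ± 0.298 to 6.03 ± 0.797 CPM) and *Tspan18* (2.46 ± 0.451 to 4.77 ± 0.817 CPM).

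Of 16 pericyte and smooth muscle genes 4 rose and 0 fell (2.8% and 2.75% of all tested genes did). *Rgs5*, a regulator of G protein signaling in pericytes, was at 32.2, 29.4 and 27.4 CPM in vehicle tumors and at 37.4, 53.6 and 44.3 CPM after VCR (0.60, SE 0.11, adjusted p = 0.0652). *Mcam* and *Ndufa4l2* rose by 0.48 and 1.20. The fourth, *Des*, is desmin, also a main protein of the skeletal fibre, and it stood at 10, 7.76 and 11.4 CPM and then at 197, 429 and 134 CPM. *Pdgfrb*, a defining pericyte receptor, was at 268, 164 and 251 CPM and then at 231, 240.1 and 242 CPM, inside the vehicle range.

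The extracellular matrix moved in both directions, with 3 of 61 genes higher and 4 lower (2.8% and 2.75% of all tested genes were). Under the term for Y-linked transcripts 9 members passed as higher and 0 as lower, and under the splines 1 and 0. *Col1a1*, the main chain of fibrillar collagen, was at 521, 425 and 496 CPM in vehicle tumors and at 867, 857 and 718 CPM after VCR, with the groups well apart (0.76, SE 0.20, adjusted p = 0.087). *Dcn*, the small proteoglycan decorin, rose from 18.3, 8.8 and 8.13 CPM to 23.5, 37.6 and 24.5 CPM (1.28, SE 0.30), and *Col15a1*, a collagen of vessel and muscle basement membranes, rose by 0.68. *Fn1*, fibronectin, was lower, at 3172, 2638 and 3820 CPM and then at 1969, 2096 and 2352 CPM (-0.59, SE 0.17, adjusted p = 0.0981). *Hspg2* and *Lamb1*, perlecan and a laminin chain of basement membranes, fell by 0.40 and 0.32, and *P4ha1* is counted here too. The basement membrane collagens *Col4a5* and *Col4a6*, neighbors on chromosome X, fell by 0.75 and 0.55. Single genes known in fibroblasts that were chosen because they rose, and so say nothing of fibroblast genes as a group, include *Pi16* (2.78 ± 1.44 to 7.87 ± 2.52 CPM), *Podn* (1.31 ± 0.369 to 3.78 ± 1.2 CPM) and *Cd248* (13.4 ± 0.567 to 21.8 ± 2.85 CPM).

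Of 47 Wnt pathway genes 4 rose, most from low levels, and 0 fell (2.8% and 2.75% of all tested genes did). *Wnt11*, a ligand that often signals without β-catenin, was at 0.185, 0.235 and 0.201 CPM in vehicle tumors and at 0.698, 0.86 and 0.617 CPM after VCR (1.79, SE 0.39, adjusted p = 0.0713). *Sfrp2*, a secreted Wnt antagonist, *Ror2*, a receptor for such ligands, and *Fzd2*, a Frizzled receptor, rose by 1.96, 1.32 and 0.50. *Fzd2* is the member of the 4 with a high level, 85.6 ± 13 against 121 ± 3.57 CPM. Among 33 chemokines and myeloid growth factors 2 rose (2.8% of all tested genes did). *Ccl2*, which draws monocytes, was at 24.6, 25.9 and 23.1 CPM and then at 35.3, 46.9 and 30.9 CPM. *Ccl17*, a chemokine that draws T cells, was at 1.49 CPM or less in each tumor, and its groups overlapped. Of 26 macrophage and monocyte genes 0 passed the test by edgeR, and 4 had an unadjusted p under 0.05 (22.1% of all tested genes did). DESeq2 called 1 of them lower, and 14.4% of all genes it tested, and the list median was 0.14. *Adgre1* (F4/80), the usual macrophage marker, was at 114 ± 11.5 CPM in vehicle and 103 ± 9.37 CPM in VCR tumors (adjusted p = 0.462).

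Nuclear genes of the respiratory chain were higher after VCR by a small amount. Of 40 complex I subunits 10 rose and 0 fell (2.8% and 2.75% of all tested genes did). A fold change above 0 was seen for 40 of 40, against 50.3% of all tested genes. Of 42 other subunits of the chain and of ATP synthase 15 rose and 0 fell, and 41 of 42 were above 0. The medians were 0.305 and 0.289. With only the 6 tumors they were 0.286 and 0.271, and 0 and 1 members passed, against 2.76% of all genes. With the muscle covariate the medians were 0.205 and 0.212, and 0 members of either class passed, against 0.102% of all genes. *Ndufb7*, a complex I subunit, was at 62.3, 60.9 and 65.9 CPM in vehicle tumors and at 86.9, 109.5 and 77.3 CPM after VCR (0.53, SE 0.12, adjusted p = 0.0749). *Cox5a*, of cytochrome oxidase, was at 93.9, 107 and 96.8 CPM and then at 136, 163 and 126 CPM (0.51, SE 0.12). *Atp5k* and *Uqcr10*, of ATP synthase and complex III, rose by 0.53 and 0.45. Mitochondrial ribosomal proteins rose in 8 of 78 members and fell in 0 (2.8% and 2.75% of all tested genes did), with a median of 0.23. With only the 6 tumors, and with the muscle covariate, 0 of the 78 passed. The 83 cytosolic ribosomal proteins had a median of 0.04 with 2 higher, where 2.8% of all tested genes rose. In each VCR tumor the complex I median was above that of each vehicle tumor, and it was highest in m5 (0.465), then m4 (0.282) and m6 (0.141). The muscle list had this order, and so did the shortest protein-coding genes outside that list, as given below.

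**Figure D4:**
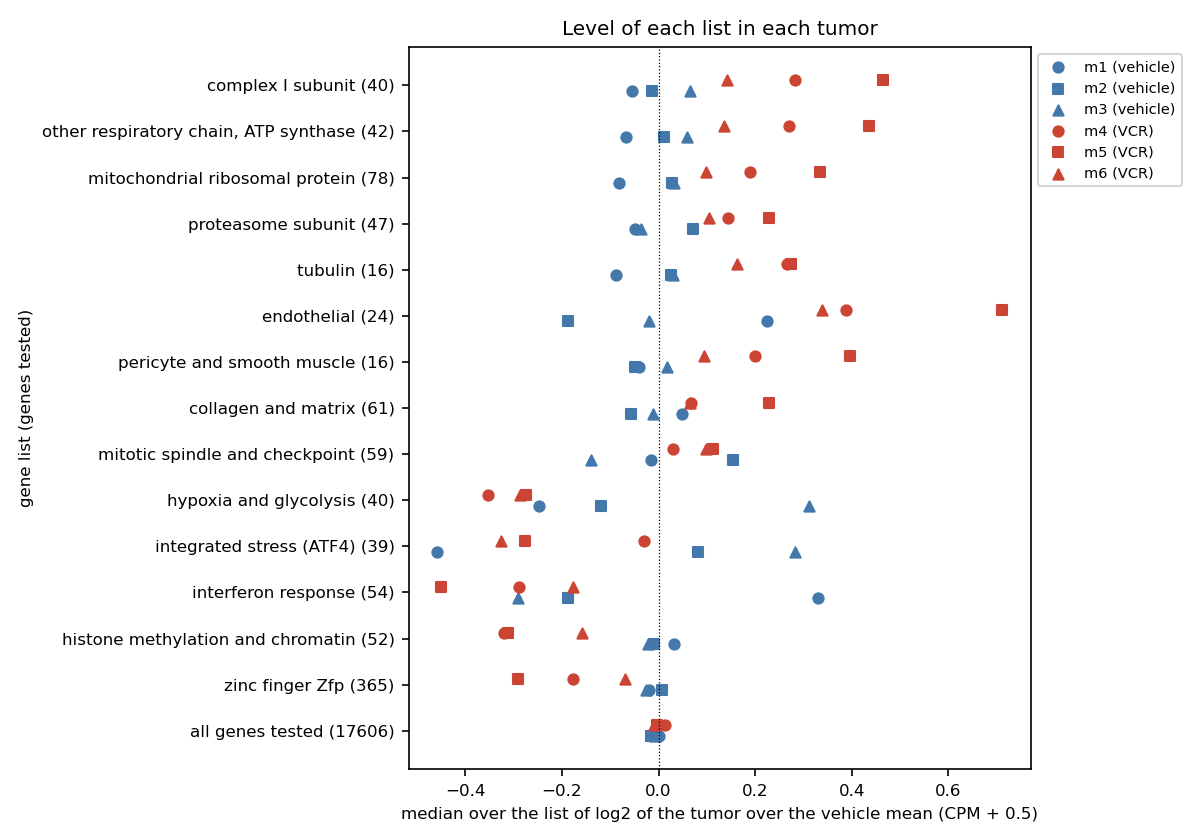
Median over each gene list (vertical axis, number tested in brackets) of the log2 ratio of a tumor to the vehicle mean, with 0.5 CPM added (horizontal axis), for vehicle tumors in blue and VCR tumors in red. The respiratory chain lists are highest in m5 and the chromatin list is lower in the 3 VCR tumors, while in the hypoxia list m1 lies near the VCR tumors and in the interferon list 2 vehicle tumors lie among them.

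Chromatin regulators were lower after VCR. Of 52 genes of histone methylation and chromatin 17 fell and 0 rose (2.75% and 2.8% of all tested genes did), and the list median was -0.27. *Tet2*, which oxidizes methylated DNA, was at 22.9, 22.2 and 25 CPM in vehicle tumors and at 13.8, 15.4 and 16.9 CPM after VCR (-0.61, SE 0.12, adjusted p = 0.0695). *Kmt2d*, a histone methyltransferase of enhancers, was at 255, 239 and 253 CPM and then at 197, 192 and 193 CPM (-0.36, SE 0.06). *Setd5* is given above, and *Chd2*, a chromatin remodeler, and *Kdm2a*, a histone demethylase, fell by 0.55 and 0.36. The acetyltransferase *Ep300* and the remodeling subunit *Arid1a* fell by 0.42 and 0.24. Zinc-finger genes named Zfp fell in 19 of 365 members and rose in 0, against 2.75% and 2.8% of all tested genes. *Zfp292* was at 50.3, 53.1 and 38.5 CPM and then at 25.8, 24.2 and 35.2 CPM. Of 68 splicing genes 5 fell and 2 rose (2.75% and 2.8% of all tested genes did). Those that fell were *Srrm2*, *Snrnp200*, *Prpf8*, *Srsf11* and the nuclear noncoding RNA *Malat1* kept on that list. Those that rose were *Sf3b5* and *Srsf2*. *Srrm2*, a large scaffold of the spliceosome, was at 984, 930.3 and 844 CPM and then at 653, 686 and 691 CPM (-0.44, SE 0.08), and the sign turned to 0.10 with offsets for effective transcript length. Genes outside these lists that were picked after their values were seen include the microRNA effector *Ago2* (48.5 ± 7.94 to 26 ± 3.29 CPM), *Arhgap29* (107 ± 17.1 to 53.8 ± 11.4 CPM), *Notch1* (95.9 ± 7.08 to 66.6 ± 3.87 CPM) and *Igf1r* (106 ± 2.43 to 86.5 ± 5.52 CPM).

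Transcript length and GC content moved with these classes. The genes that rose outside the muscle list had a median length of 1805 bases and 55.6% GC, those that fell 5653 bases and 48.6% GC, and all tested genes 2817 bases and 51% GC. The complex I genes had a median length of 688 bases and the chromatin genes 7547 bases. Over 10 equal bins of protein-coding genes by length, the median log2 fold change ran from 0.184 in the shortest to -0.199 in the longest. A trend of that kind was present within the vehicle group as well, where the level of m3 over the other vehicle tumors ran from 0.067 to -0.224 and that of m1 from -0.061 to 0.169. With splines of GC content and length fitted per tumor, 68 of 15281 genes passed the threshold (0.445%), of which 54 were among the 977. The complex I median was then 0.12, the other respiratory chain median 0.09, the chromatin median -0.13 and the Zfp median -0.065, with 0 complex I genes and 1 chromatin gene called. The mitochondrial ribosomal median was 0.03 with 1 call, and the cytosolic ribosomal median -0.18, whereas the endothelial and hypoxia medians were 0.51 and -0.32. A difference between libraries and a difference between the cells themselves cannot be told apart here. The median of length minus effective length over long transcripts, which follows fragment length, was 185.39, 165.59 and 183.81 bases in the vehicle tumors and 161.91, 159.89 and 177.45 bases in the VCR tumors.

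**Figure D5:**
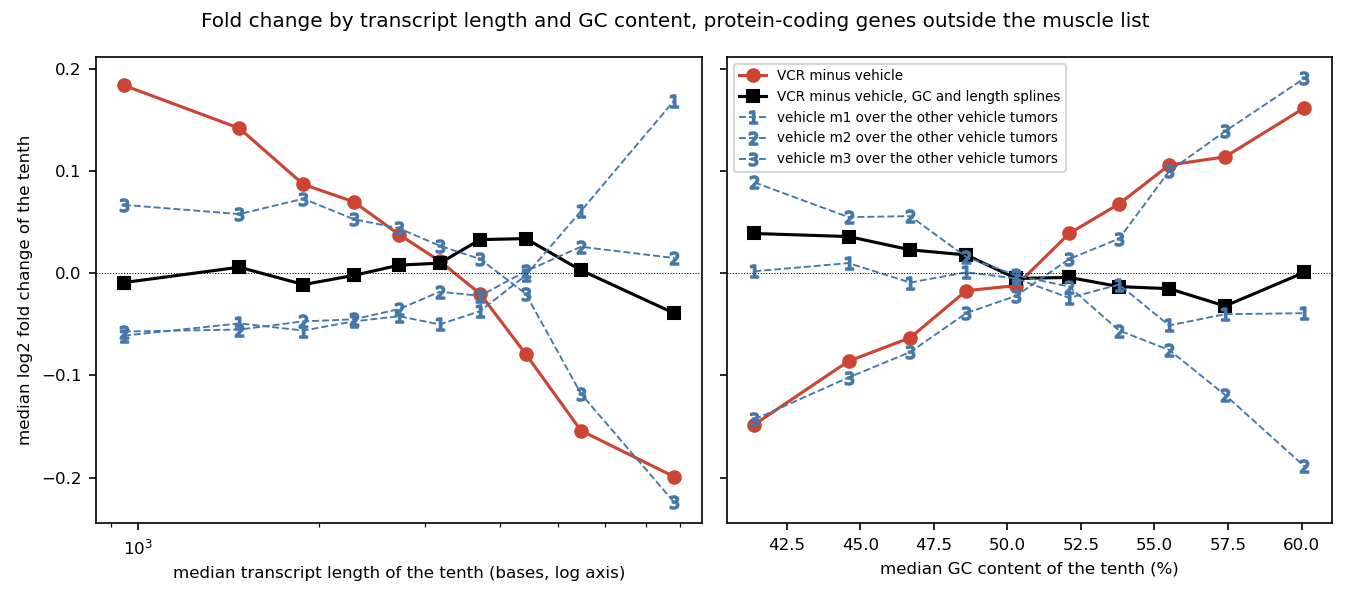
Median log2 fold change (vertical axis) over 10 equal bins of protein-coding genes outside the muscle list by transcript length (left, bases on a log axis) and GC content (right, percent), for VCR over vehicle (red), the same with splines (black) and each vehicle tumor over the other vehicle tumors (blue, dashed, marked 1, 2 and 3 for m1, m2 and m3). With length the red line falls from 0.184 to -0.199, the black line stays between -0.039 and 0.034, and m3 falls from 0.067 to -0.224.

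The largest rises outside the muscle list included further genes known from muscle. Chosen by size among genes with separate groups and a mean of at least 1 CPM, they were *Igfn1*, *Kcnc4*, *Fbp2*, *Alpk2*, *Mlip*, *Mt3*, *Sel1l3*, *Ddit4l*, *Thbs4*, *Hspb1*, *Nol3* and *Smoc2*. *Fbp2*, the muscle form of fructose bisphosphatase, had 2 counts in m1, 0 in m2 and m3, and 1.93, 10.4 and 1.17 CPM after VCR, and the ratio of summed counts was 204 (95% exact interval 56.2 to 1690). Its ratio of m5 to m6, 8.89, is near the 8.41 of *Ckm*. *Thbs4*, a matrix protein of tendon and muscle, did not share that pattern. It was at 3.42, 1.54 and 0.302 CPM in vehicle tumors and at 24.3, 25 and 31.4 CPM after VCR, highest in m6 (3.92, SE 0.71, adjusted p = 0.0652). *Smoc2*, a secreted matrix protein, *Mt3*, a metallothionein, and *Clu*, the secreted chaperone clusterin, also had small m5 to m6 ratios of 1.46, 1.16 and 1.63. *Clu*, picked after its values were seen, was at 9.93, 12.1 and 9.13 CPM and then at 64.8, 47.7 and 29.2 CPM. Over all 441 genes that rose outside the muscle list, 65.5% had the order m5 above m4 above m6, against 24.8% of all tested genes. The muscle list had this order. So did the shortest of the 10 bins of protein-coding genes outside that list. Its median log2 ratio to the vehicle mean was 0.268 in m5, 0.171 in m4 and 0.066 in m6. Whether the order follows muscle or transcript length was not tested.

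The most abundant genes that rose, by mean TPM (the level per transcript length, which allows genes to be compared), were *Pfn1*, *Cox6b1*, *Ppp1r14b*, *Atp5j2*, *Atp5g3*, *Pcolce*, *Atp5l* and *Uqcr10*. *Pfn1*, profilin, which supplies actin monomers, was at 793, 841 and 946 CPM in vehicle tumors and at 1187, 1313 and 1033 CPM after VCR (0.45, SE 0.10, adjusted p = 0.0748). The most abundant that fell were Gm42226, *Fn1*, *Eif4b*, *Flna*, *Nedd4*, *Epb41l2*, *Srrm2* and *Eif3a*. *Flna*, filamin A, which crosslinks actin, was at 1884, 1676 and 1569 CPM and then at 1296, 1438 and 1405 CPM, and the translation factors *Eif3a* and *Eif4b* fell by 0.47 and 0.31. *Tfrc*, the transferrin receptor for iron uptake, fell from 106, 153 and 90.5 CPM to 70.6, 52 and 67.6 CPM (-0.88, SE 0.24, adjusted p = 0.0921). The largest falls among genes of at least 1 CPM were of sparsely annotated loci such as Gm46186 and Gm46468, with the named genes *Fam186b*, *Nebl*, *Evi2* and *Unc5c* beside them. *Unc5c*, a netrin receptor, was at 5.12, 4.87 and 3.83 CPM and then at 1.52, 1.29 and 2.57 CPM (-1.36, SE 0.36). Predicted genes named Gm fell in 68 of 2338 tested members and rose in 9, against 2.75% and 2.8% of all genes, and their reads may be shared with near-identical copies.

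Several lists held no call by edgeR. For comparison, 22.1% of all tested genes had an unadjusted p under 0.05 and 50.3% had a fold change above 0. DESeq2 with all 12 tumors called 14.4% of the genes it tested. Of 39 ATF4 target genes 0 passed, 4 were lower at an unadjusted p under 0.05 and 4 by DESeq2, 35 had a fold change below 0 and the median was -0.21, between -0.38 without m1 and -0.01 without m3. *Chac1*, a glutathione-degrading enzyme on that list, was at 10.5, 21.7 and 30.6 CPM in vehicle tumors and at 21.1, 13.2 and 11.2 CPM in VCR tumors (adjusted p = 0.491). Of 54 interferon response genes 0 passed, 1 was lower at an unadjusted p under 0.05 and 1 by DESeq2, and the median was -0.29. Vehicle tumor m1 stood apart there, with 3515 CPM over the list against 1749 and 1445 CPM in m2 and m3 and 1836, 1535 and 1920 CPM in the VCR tumors. Without m1 the median was 0.09. The 20 MHC class I and 12 MHC class II genes, which present antigen, had 0 calls each, with 0 and 1 at an unadjusted p under 0.05 and 0 by DESeq2, and both summed highest in m1 (7255 and 3465 CPM). The 25 lymphocyte genes tested had 0 calls, 2 at an unadjusted p under 0.05 and 1 by DESeq2. Some lists held calls of 1 to 3 members, where 2.8% of all tested genes rose and 2.75% fell, so these calls say nothing of the lists as a whole. Of 19 clock genes *Ciart* fell, of 32 heat shock genes *Hspb1* rose and *Hspa4l* fell, and of 31 immediate early genes *Ier2* rose. Of 45 genes of the unfolded protein response the sensor *Ern1* fell from 28.7 ± 6.5 to 14.6 ± 3.35 CPM. On the same list *Creld2*, a chaperone of the endoplasmic reticulum, and *Dad1*, a subunit of the enzyme that attaches N-glycans, rose by 0.26 and 0.45. The 32 cholesterol synthesis genes had *Ebp* higher (33 ± 2.52 to 49.7 ± 5.75 CPM) and *Scd2*, a fatty acid desaturase kept on that list, lower (799.8 ± 84.5 to 561 ± 63.8 CPM).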

How the data were processed

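The authors extracted RNA from snap-frozen bulk tumors and made poly-A libraries with a kit named stranded, which the labels call non-stranded, so sense and antisense reads may not be told apart. Reads were quantified with kallisto on GRCm38 (version not given in the sources used here). The deposited files hold an estimated count and a TPM (level per transcript length) per RefSeq transcript. The estimated counts were summed per gene (38904 genes) and rounded, and TPM was used only to rank genes by abundance. Each tumor is a separate mouse. In the main fit a p-value sets the difference between the groups against the spread between tumors within groups, estimated over all 12 tumors.

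Genes kept by filterByExpr (minimum count 10, 17606 genes) were tested with edgeR 4.0.16 in R 4.3.3, with TMM factors, the quasi-likelihood F test and Benjamini-Hochberg adjustment at 0.1, the level the study used. All 12 tumors of 4 groups shared 1 estimate of the spread. Alternatives used limma 3.58.1, DESeq2 1.42.0, other filters, scalings and covariates, and left out each tumor. The procedure was tested on simulated data. Tables and plots were made with Python 3.11.15.

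The comparison, gene lists and tests were chosen with earlier results of these data known. Outside the muscle list, genes were named by an adjusted p under 0.05, by the 12 largest changes each way among called genes with separate groups and at least 1 CPM, by the 8 highest mean TPM each way among these, by the 4 smallest p in each list, or from a short set given whatever they did. Other genes, such as *Pdk1*, *Pfkl*, *P4ha1*, *Tie1*, *Egfl7*, *Sox17*, *Tet2*, *Cox5a*, *Ep300*, *Arid1a*, *Lamb1*, *Spc24*, *Prpf8*, *Sf3b5*, *Srsf2* and *Fhl1*, were named after their values were seen.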

Additional observations from a re-analysis of the deposited data

How the results depend on the processing

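The number of genes past the threshold, 977 with 493 higher and 484 lower, depended on the setting, and the causes were not tested. It was 647 (319 higher) with no filter on low counts, 465 (113 lower) with only the 6 tumors, 376 (218 higher, 158 lower) with the term for Y-linked transcripts, 68 (37 and 31) with splines of GC content and length, 18 (15 and 3) with the muscle covariate, and 9 (3 and 6) at a threshold of 0.05. DESeq2 gave 2216 (1114 and 1102) with all 12 tumors and 848 higher with only the 6, and limma-voom gave 320 higher. Leaving out each tumor gave 0 to 2019 genes, 0 to 1050 higher and 0 to 969 lower. The lowest came without m2, m4 or m5, the highest without m6. Of the single genes named, 5 changed sign: *Bax* (-0.0267) and *Mki67* (0.00669) with the splines, *Srrm2* (0.10) with length offsets, *Cdkn1a* (-0.0425) and *Tubb2b* (0.16) with the muscle covariate. Leaving out each tumor, *Cdkn1a* ran from -0.11 to 0.40 and *Tubb2b* from -0.39 to 0.12. No paired analysis was possible because the groups share no replicate number. With 3 tumors a group, and calls close to the threshold, a gene that did not pass is not shown to be unchanged.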

Other observations

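Some genes outside the lists passed the threshold both in the main comparison and with splines of GC content and length, and were picked after their values were seen. *Rac1*, a small GTPase that drives actin-based protrusions, was at 269, 289 and 292 CPM in vehicle tumors and at 355, 350.0 and 347 CPM in VCR tumors (log2 fold change 0.31, SE 0.06). *Frmd5* and *Ehd3*, a FERM-domain gene and a gene of endosomal transport, rose from low levels by 1.70 and 1.67. *Shank3*, a scaffold protein gene, rose by 0.61. On the lower side were *Syne2*, which ties the nucleus to the cytoskeleton (85 ± 11.8 to 62.2 ± 3.88 CPM, SD, n = 3), *Sec16a*, which organizes exit sites of the endoplasmic reticulum (99.1 ± 9.27 to 73.7 ± 2.75 CPM), and *Eif2ak4*, the amino acid sensing kinase GCN2 (53.7 ± 3.58 to 39.5 ± 2.48 CPM). None of these 7 genes passed with the muscle covariate, where their adjusted p by edgeR lay between 0.133 and 0.274.

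The imprinted noncoding RNA *Meg3* rose from 17.5, 9.94 and 8.63 CPM to 24.2, 45.1 and 19.1 CPM (log2 fold change 1.29, SE 0.37, edgeR adjusted p = 0.0966). *Rian*, from the same imprinted locus, was at 6.41, 5.94 and 2.75 CPM and then at 8.94, 16.8 and 8.05 CPM and did not pass (adjusted p = 0.104). Both were highest in m5, the tumor with the highest muscle fibre level. *Cma1*, a mast cell protease, rose from 0.617, 0.47 and 0.101 CPM to 1.01, 2.64 and 1.23 CPM (adjusted p = 0.087).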
